A study of Mus musculus with 10 samples.

Results

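The genes described here are the Myc family with its partner Max (Myc, Mycn, Mycl, Max) and a set of cell survival genes made up of 5 members of the Bcl2 family (Mcl1, Bcl2l1, Bcl2l11, Bax, Bak1) and the inhibitor of apoptosis Birc5. They were picked by name, through the GENCODE M21 symbol of the listed transcript, and no measured value served as a criterion. Earlier results of these data were known when the genes were chosen. All 10 were found, each as 1 of the 14534 coding transcripts listed. The reads are ribosome footprints and transcriptome fragments of the mouse embryonic stem cells CGR8, cultured feeder-free on gelatin with leukemia inhibitory factor, and every group is a culture of this 1 line. Of the 4 conditions with 2 footprint libraries each, 1 is the control and 3 are drugs, namely DMDA-PatA at 1 µM for 10 min, harringtonine at 2 µg/ml for 10 min, and puromycin, which acted for 20 min at 0.2 mg/ml. A further 2 libraries hold heat fragmented whole transcriptome RNA of control cells. Each sample, the control included, received the same amount of DMSO, and cycloheximide was present from the washing of the cells onwards. The comparisons address how each drug changes the ribosomes on the coding sequence (ORF) and on the 5' UTR.

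MYC proteins are short-lived transcription factors that bind DNA as a dimer with MAX, and Myc and Mycn are both expressed in embryonic stem cells. Bcl2 family proteins decide whether the outer mitochondrial membrane is opened during apoptosis. MCL1 and BCL-X (Bcl2l1) keep it closed, BAX and BAK (Bak1) form the pores, and BIM (Bcl2l11) binds the guardians and thereby promotes pore formation. DMDA-PatA is an analog of pateamine A and acts on eIF4A, the helicase that prepares the 5' UTR for the scanning ribosomal subunit, harringtonine blocks ribosomes at the beginning of elongation, and puromycin enters the ribosome in place of an aminoacyl-tRNA and releases the unfinished chain.

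The ORF of each gene has the length of the GENCODE M21 coding sequence of the same transcript, from 273 nt in Bcl2l11 to 1386 nt in Mycn. The listed 5' UTR was 576 nt long for Myc, 372 nt for Mycn, 424 nt for Mycl, 223 nt for Max, 136 nt for Mcl1, 368 nt for Bcl2l1, 228 nt for Bcl2l11, 123 nt for Bax, 636 nt for Bak1 and 32 nt for Birc5, so that 7 of 10 were above the median of 174 nt over 11161 coding transcripts. For Max and Mcl1 the M21 transcript begins further downstream and has a 5' UTR of 160 and 69 nt. The median is over transcripts with an ATG at the listed ORF start in M21, and with its 160 nt Max lies below it. An ATG upstream of the start codon is present in 5 of 10 genes, compared with 52.1% of these transcripts. Bak1 and Bcl2l1 each have 4, and every 1 of them is followed by a stop codon before the main start codon. Mycn, Bcl2l11 and Bax each have 1, and Myc, Mycl, Max, Mcl1 and Birc5 have none. From that of Mycn an ORF of 225 nt ends inside the 5' UTR, and from that of Bcl2l11 an ORF runs past the main start codon.

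The start codons of the genes that the comparisons turn on are shown with their surroundings, together with the CTG of Myc and the upstream ATGs of Bak1, because reads in front of the main start codon are a large part of the results. The sequences are those of the GENCODE M21 transcripts on GRCm38, with the codon in capitals. In Myc the CTG lies in frame 45 nt upstream of the ATG, and 2 other M21 transcripts of Myc have their coding sequence begin there, so that these 45 nt are counted here as 5' UTR.
Myc start codon (chr15:61987522-61987524, plus strand): gccacgacgATGcccctcaa
Myc in-frame CTG (chr15:61985922-61985924, plus strand): gtttgaaggCTGgatttcct
Mycn start codon (chr12:12940391-12940393, minus strand): ggcgaacccATGcccagctg
Max start codon (chr12:76962023-76962025, minus strand): ccgtaggaaATGagcgataa
Mcl1 start codon (chr3:95658857-95658859, plus strand): cgtccgaccATGtttggcct
Bak1 start codon (chr17:27025854-27025856, minus strand): acctgaaaaATGgcatctgg
Bak1 upstream ATG at position 92 of the transcript (chr17:27028916-27028918): ctctatttcATGatcctcct
Bak1 upstream ATG at position 191 (chr17:27028817-27028819): agggagaagATGgaagagga
Bak1 upstream ATG at position 409 (chr17:27028599-27028601): acctcctctATGgtcacaaa
Bak1 upstream ATG at position 470 (chr17:27028538-27028540): tccagcaccATGaatccact

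A purine 3 bases before the start codon together with a G right after it, the surroundings that favour initiation, occurs at the main start codon of Mycl, Bax, Bak1 and Birc5, thus in 4 of 10 genes against 44.5% of the 11161 transcripts. The start codons of Myc, Max and Mcl1 have the purine without the G, and that of Mycn has neither. From the ATG at position 191 of Bak1 an ORF of 141 nt runs to its stop codon, and from the other upstream ATGs in their order 87, 192 and 36 nt.

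The read numbers behind the values were 9104220 and 10614247 reads on ORFs in the control libraries, 618334 to 1944784 in the drug libraries, and 16649611 and 38046741 in the transcriptome libraries. Values are given as deposited, as footprints normalised to spike-in reads, where 1 read is worth 0.631 to 2.07. The median fold inhibition of 8461 well expressed coding sequences by DMDA-PatA was 29.4 in the replicate 1 pair and 17.8 in the replicate 2 pair. Markers of stem cells were present (10 of 10 with at least 100 normalised transcriptome reads, led by Zfp42). Of the fibroblast markers 4 of 6 passed the same level, led by Col1a1, as did 5 of 5 mesoderm and neural markers, led by T, and none of the endoderm markers did. The footprints summed over the fibroblast markers were 22679 and 17016 in the control libraries and 662 and 1162 with DMDA-PatA, and those over the stem cell markers 45629 and 42772 against 2583 and 4127. In the transcriptome the order was the other way round. The sums there were 174947 and 179557 normalised reads for the fibroblast markers and 40033 and 35716 for the stem cell markers. Whether other cells contribute to the values was not tested, and in such bulk samples fewer cells of a type and less RNA per cell cannot be told apart. The study calls the replicates biological, and the labels do not say whether they came from separate cultures, so the p-values measure the spread between these libraries.

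In control cells Birc5, Mycn and Mcl1 were the most heavily translated of the 10 genes and Mycl the least. Per kilobase of ORF, Birc5 had 6974 ± 370 normalised footprints (SD, n = 2, here and below), Mycn 3804 ± 42.9, Mcl1 2947 ± 559, Bax 2403 ± 334, Max 1388 ± 139, Myc 1361 ± 71.0, Bak1 988 ± 86.6, Bcl2l1 772 ± 150, Bcl2l11 769 ± 62.2 and Mycl 120 ± 6.70. In this order Mcl1 and Bax, Max and Myc, and Bcl2l1 and Bcl2l11 are closer to each other than their spread. The median of well expressed coding sequences was 343 footprints per kilobase, and Mycl was the only gene of the 10 below it. In the transcriptome the order was different, with Bax highest at 6121 ± 356 normalised reads per kilobase, followed by Birc5 (4022 ± 20.2), Mcl1 (3856 ± 65.3) and Mycn (3352 ± 33.3), and with Bcl2l11 (510 ± 12.6) and Mycl (284 ± 6.91) lowest.

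The translation efficiency is the share of all ORF footprints that lies on a gene, divided by its share of all ORF transcriptome reads. It was 4.32 and 4.27 for Birc5 in the 2 replicates, 3.34 and 4.16 for Bcl2l11, 2.98 and 2.73 for Max, 2.72 and 2.91 for Mycn, 2.22 and 2.50 for Myc, 2.10 and 1.68 for Mcl1 and 1.36 and 1.31 for Bak1. All of these values are above the median of 1.01 for well expressed coding sequences, and 98.3% of them were below the value of Birc5. Bcl2l1 (1.11 and 1.08), Mycl (0.954 and 1.15) and Bax (0.813 and 1.15) were close to the median. Footprints exceeded transcriptome reads for 7 of 10 genes in the quasi-likelihood test of edgeR (p-values adjusted by Benjamini-Hochberg, here and below), with log2 differences from 0.42 for Bak1 (SE 0.11, adjusted p = 0.00375) to 2.10 for Birc5 (SE 0.10, adjusted p = 2.99e-10), where 29.9% of the 13717 coding transcripts tested were higher. None of the 10 was lower, also at an unadjusted p under 0.05 and by DESeq2 and limma, while 41.2% of all transcripts were. For Bax, Bcl2l1 and Mycl the log2 differences were -0.03, 0.14 and 0.08, and these were not called. The listed transcript of Bcl2l11 is the shortest of its isoforms and shares 214 nt with the longest coding sequence of 588 nt, so its efficiency is that of this part of the gene. The listed ORF of Bcl2l1, 627 nt long, shares 564 nt with its longest coding sequence of 699 nt. Its ORF values therefore leave out part of that form.

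**Figure D1:**
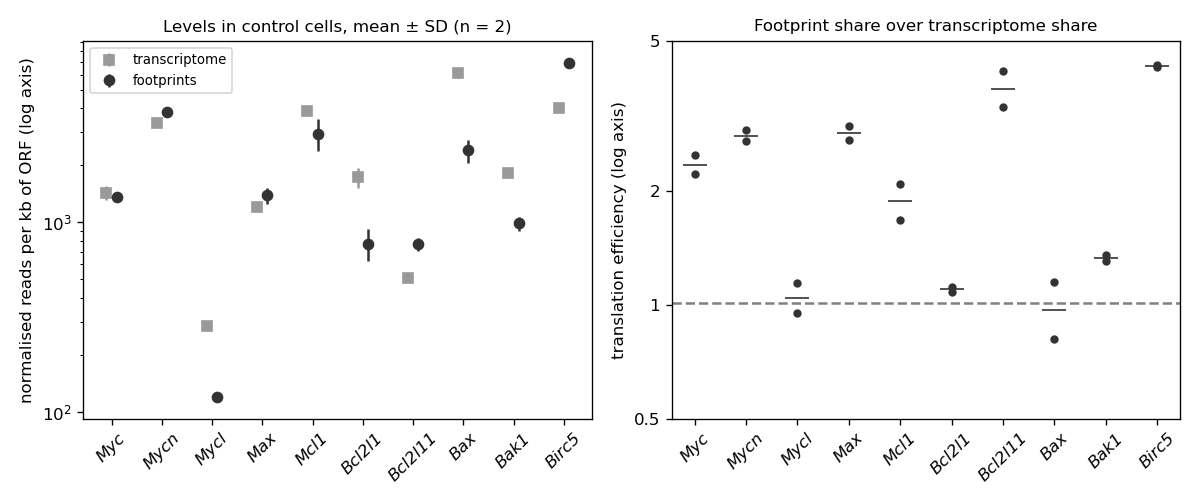
Left, normalised transcriptome reads (squares) and footprints (circles) per kilobase of ORF of the 10 genes in control cells on a log axis, as mean and SD of 2 libraries. Right, translation efficiency in each replicate (points) and from the means (bars) on a log axis, where the dashed line is the median of well expressed coding sequences (1.01) and Birc5 and Bcl2l11 are highest.

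DMDA-PatA removed nearly all footprints from the ORFs of the Myc family. The 2 control libraries had 1859 and 1727 normalised footprints on Myc, the best known transcription factor of the family, the puromycin libraries 616 and 450, the harringtonine libraries 183 and 117 and the DMDA-PatA libraries 20.8 and 22.7. The 4 groups of Myc values do not overlap, and DMDA-PatA left 1.21% of the footprints. Mycn, its paralog in stem cells and neural precursors, had 5314 and 5230 footprints in control cells, 1123 and 1447 with puromycin, 830 and 498 with harringtonine and 47.4 and 73.9 with DMDA-PatA. Again the groups do not overlap, and 1.15% were left with DMDA-PatA. Mycl, the third paralog, had 127 and 138 footprints in control cells and 2.53 and 3.25 with DMDA-PatA, which correspond to 4 reads in each library. With puromycin and harringtonine its values were between 18.2 and 27.4, and these 2 groups overlap.

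Max, the common dimerisation partner, had 713 and 619 footprints in control cells, 368 and 238 with puromycin, 335 and 205 with harringtonine and 14.5 and 17.0 with DMDA-PatA. The values with puromycin and harringtonine overlap, and those with DMDA-PatA are far below both. With harringtonine 40.5% of the Max footprints were left, compared with 8.35% for Myc and 12.6% for Mycn, whose ORFs are longer than the 480 nt of Max.

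Among the guardians of the mitochondrial membrane, Mcl1 kept the most footprints in the presence of DMDA-PatA. Its values were 3319 and 2534 in control cells, 374 and 1135 with puromycin, 927 and 601 with harringtonine and 257 and 456 with DMDA-PatA. The 2 puromycin libraries are further apart than for any other gene of the 10 and enclose the range of the harringtonine values. Bcl2l1 had 551 and 418 footprints in control cells, 256 and 153 with puromycin, 75.1 and 46.2 with harringtonine and 18.9 and 25.2 with DMDA-PatA, without overlap between groups.

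Among the genes that promote apoptosis, the pore formers Bax and Bak1 differed. Bax had 1248 and 1520 footprints in control cells, 416 and 297 with puromycin, 515 and 375 with harringtonine and 87.1 and 171 with DMDA-PatA, which is 9.33% of the control. Bak1 had 658 and 581 in control cells, 103 and 101 with puromycin, 52.8 and 23.1 with harringtonine and 9.47 and 11.4 with DMDA-PatA, which is 1.68% of the control. In M21, exons of Gm45808 on the same strand overlap 192 nt of the Bax ORF, and exons of Ggnbp1 on the opposite strand overlap up to 79 nt of the ORF and up to 257 nt of the 5' UTR of Bak1. The part of these genes in the counts was not tested. Bcl2l11, which encodes BIM, had 198 and 222 footprints in control cells, 149 and 112 with puromycin, 109 and 56.7 with harringtonine and 5.05 and 18.7 with DMDA-PatA, the last from 8 and 23 reads. Birc5 encodes survivin, which also acts in the chromosomal passenger complex of dividing cells, and had 2627 and 2437, 945 and 919, 1102 and 871, and 142 and 258 footprints in the same order of conditions.

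**Figure D2:**
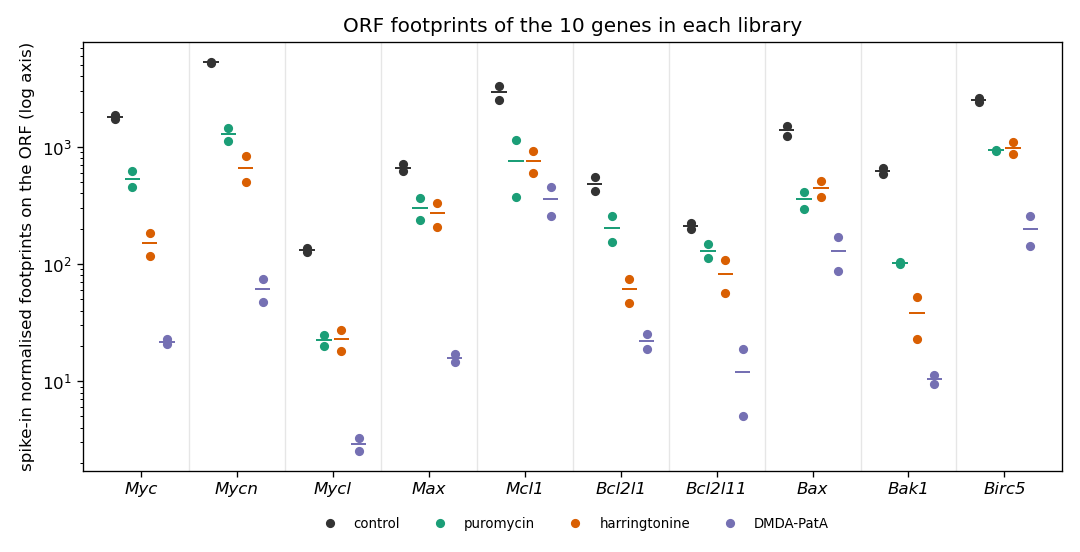
Spike-in normalised footprints on the ORF of each of the 10 genes (log axis), with 1 point per library, 2 libraries per condition, and a bar at their mean. With DMDA-PatA (purple) all points lie below those of the other conditions of the same gene, except that 1 puromycin value of Mcl1 (374) lies between the 2 DMDA-PatA values.

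By edgeR's quasi-likelihood test with the spike-in size factors, DMDA-PatA lowered the ORF footprints of 10 of 10 genes, where 99.3% of the 12499 transcripts tested were lower. The log2 fold changes ranged from -6.45 for Mycn (SE 0.57, adjusted p = 1.05e-27) and -6.36 for Myc (SE 0.56, adjusted p = 1.02e-27) to -3.42 for Bax (SE 0.48) and -3.04 for Mcl1 (SE 0.48, adjusted p = 2.6e-10), with a median of -4.93 against -4.32 over all transcripts. Harringtonine lowered 10 of 10 (92.9% of all transcripts), from -4.05 for Bak1 (SE 0.48) to -1.31 for Max (SE 0.43), with a median of -2.25 against -2.97. Puromycin lowered 9 of 10 (90.1% of all transcripts), from -2.60 for Bak1 (SE 0.45) to -1.14 for Max (SE 0.43), with a median of -1.85 against -2.48, and the change of -0.70 for Bcl2l11 (SE 0.43) was not called (adjusted p = 0.112). No gene of the 10 was higher with any of the drugs by edgeR, at an unadjusted p under 0.05, by DESeq2 or by limma, whereas DMDA-PatA raised 0.056% of all transcripts, harringtonine 0.512% and puromycin 0.352%. In the supplement of the study the size factors of harringtonine and DMDA-PatA are listed the other way round than the deposited values hold them. The Bcl2l11 call with puromycin was made without harringtonine replicate 1 or 2 (adjusted p = 0.0218 and 0.0216) and with exchanged size factors (0.00953). The call of Max with harringtonine was lost without control replicate 1 (adjusted p = 0.0564), that with puromycin without control replicate 1 or 2 or puromycin replicate 2 (0.107, 0.0512 and 0.189), and that of Bcl2l1 with puromycin without control replicate 1 or puromycin replicate 2 (0.0985 and 0.153). With the factors exchanged, the fold inhibition by DMDA-PatA was 67.6 instead of 82.3 for Myc. The transcriptome was measured in control cells alone, so with the drugs a change in RNA level and a change in ribosomes per RNA cannot be told apart.

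Relative to most transcripts, DMDA-PatA lowered the Myc family, Max and Bak1 and left Mcl1, Bax and Birc5 higher, and 2 of the 10 genes were not called. On this scale the libraries are aligned on the bulk of the ORFs by TMM normalisation, and it does not depend on the spike-in. The median of all transcripts then moves from -4.32 to -0.12 in the case of DMDA-PatA, from -2.97 to -0.12 for harringtonine and from -2.48 to -0.04 for puromycin. Lower with DMDA-PatA were 5 of 10 genes (23.6% of all transcripts), namely Mycn with a log2 fold change of -2.23 (SE 0.20, adjusted p = 8.62e-08), Myc with -2.11 (SE 0.24, adjusted p = 1.08e-06), Bak1 with -1.65 (SE 0.27), Mycl with -1.30 (SE 0.47) and Max with -1.15 (SE 0.27). Higher were 3 of 10 (18.8% of all transcripts), namely Mcl1 with 1.16 (SE 0.30, adjusted p = 0.00378), Bax with 0.75 (SE 0.22) and Birc5 with 0.53 (SE 0.20), all of which were lower on the spike-in scale. Bcl2l1 (-0.22) and Bcl2l11 (-0.02) were not called. The calls of Mycn, Myc and Bak1 were made under each alternative run. That of Mycl was lost with DESeq2, with library totals and without DMDA-PatA replicate 1 or 2 or control replicate 2 (adjusted p from 0.0567 to 0.193). Without DMDA-PatA replicate 2 the calls of Max, Mcl1, Bax and Birc5 were lost (adjusted p = 0.0640, 0.0741, 0.178 and 0.262), those of Bax and Birc5 also without control replicate 1 (0.131 and 0.150) and that of Birc5 without control replicate 2 (0.114).

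With harringtonine, Bak1 (-1.23, SE 0.21) and Myc (-0.72, SE 0.20) were lower relative to most transcripts, thus 2 of 10 genes where 30% of all transcripts were lower. Higher were 5 of 10 (26.6% of all transcripts), Max (1.55, SE 0.20), Birc5 (1.54, SE 0.19), Bcl2l11 (1.47, SE 0.23), Bax (1.24, SE 0.21) and Mcl1 (0.93, SE 0.30), which had been lower on the spike-in scale. The call of Mcl1 was lost without control replicate 2 (adjusted p = 0.0791) and by limma (0.0599). With puromycin 5 of 10 were higher (24.3% of all transcripts), namely Bcl2l11 (1.73, SE 0.24), Max (1.30, SE 0.21), Bcl2l1 (1.19, SE 0.22), Birc5 (1.01, SE 0.19) and Myc (0.70, SE 0.19), each of them lower or, for Bcl2l11, not called on the spike-in scale. None of the 10 was lower by edgeR, at an unadjusted p under 0.05, by DESeq2 or by limma (24.9% of all transcripts were lower). Mycn was called higher with puromycin without puromycin replicate 1 or either harringtonine library (adjusted p from 0.0129 to 0.0245) and by DESeq2 (0.0338), Mcl1 without puromycin replicate 1 (0.000248) and Bax without puromycin replicate 2, control replicate 2 or either harringtonine library (0.0270 to 0.0479). The values of Myc with the 3 drugs, -2.11, -0.72 and 0.70, all refer to the same 2 control libraries.

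**Figure D3:**
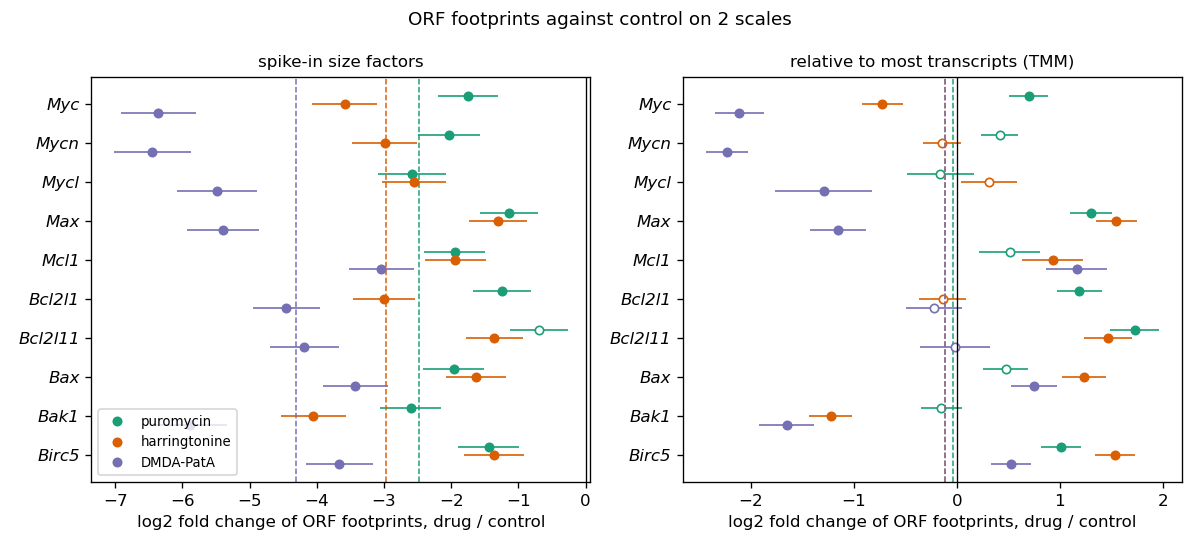
Log2 fold change of ORF footprints, drug over control, with its SE for the 10 genes, on the spike-in scale (left) and relative to most transcripts (right). Filled points passed an adjusted p of 0.05, open points did not, dashed lines mark the median of all transcripts for each drug, and with DMDA-PatA Myc, Mycn, Mycl, Max and Bak1 lie left of 0 on both scales.

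Since the footprints left after drug treatment depend on the length of the coding sequence, each gene was also placed among ORFs of its length class. Fold inhibition is the mean control value divided by the mean value with the drug, and the percentages are a description without a test. With DMDA-PatA it was 87.0 for Mycn (112 and 70.8 in the replicate pairs) and 82.3 for Myc (89.2 and 75.98), whereas the 3182 well expressed ORFs of 1000 to 2000 nt had a median of 22.6. Of this class, 97.2% were less inhibited than Mycn and 96.9% less than Myc. Mycl with 45.9 (50.4 and 42.4) was above 84.6% of the same class.

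Max was inhibited 42.2 fold (49.1 and 36.3), more than 89.0% of the 855 ORFs of 300 to 600 nt, whose median was 15.0. Bak1 with 59.5 fold (69.5 and 51.1) was above 92.3% of the 1487 ORFs of 600 to 1000 nt, whose median was 19.2. In this same class Mcl1 was inhibited 8.21 fold (12.9 and 5.55), and only 8.74% were inhibited less, whereas Bcl2l1 with 22.0 fold was near the middle. Bax (10.7 fold), Birc5 (12.7 fold) and Bcl2l11 (17.7 fold, with 39.2 and 11.9 in the replicate pairs) lay at 32.6%, 41.5% and 62.7% of their classes.

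With harringtonine, Bak1 was inhibited most, 16.3 fold (12.5 and 25.2), and was above 90.4% of its length class with a median of 6.09. Myc followed with 11.97 fold (10.2 and 14.8) and was above 68.4% of its class, and the other 8 genes lay between 26.4% and 65.2%. Those called higher relative to most transcripts with harringtonine lay at 56.5% (Bcl2l11), 42.6% (Bax), 32.7% (Birc5), 29.6% (Max) and 26.4% (Mcl1) of their classes. With puromycin the fold inhibition ranged from 1.61 for Bcl2l11 to 6.07 for Bak1. Bcl2l1 (2.37 fold) and Myc (3.36 fold) were less inhibited than most ORFs of their classes, at 10.56% and 12.005%, and Bax (3.88 fold) and Bak1 more, at 74.2% and 73.5%. For Mcl1 (3.88 fold with puromycin) the replicate pairs were far apart, with 8.87 and 2.23.

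**Figure D4:**
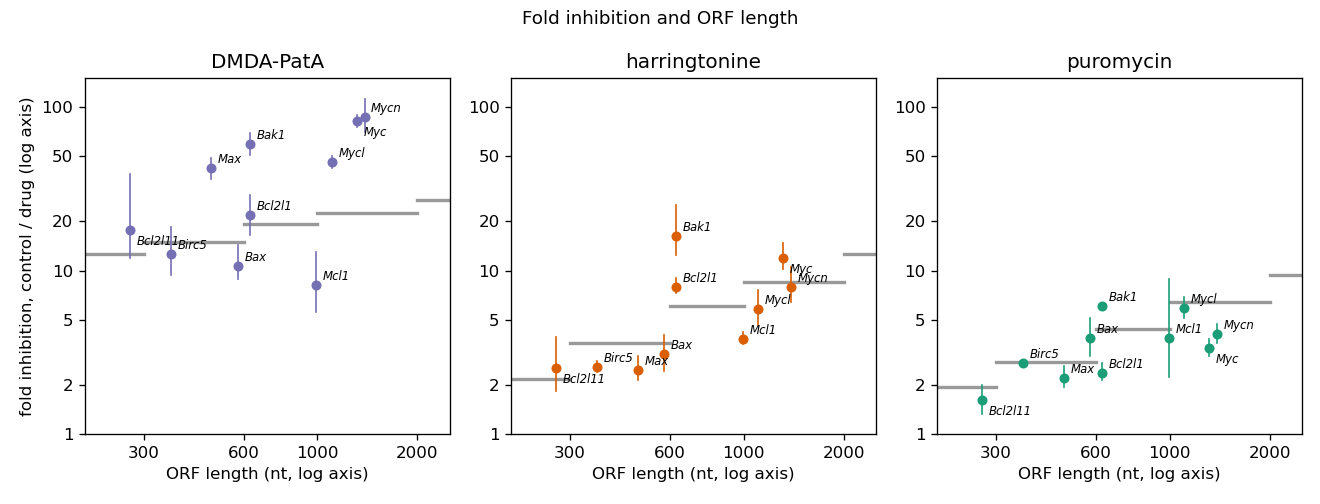
Fold inhibition of the 10 genes (points, with a line between the 2 replicate pairs) against ORF length for each drug, both on log axes. Grey lines are the medians of well expressed ORFs per length class, and with DMDA-PatA Myc (82.3), Mycn (87.0), Bak1 (59.5), Mycl (45.9) and Max (42.2) lie above them and Mcl1 (8.21) below.

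The drugs were compared with each other on the spike-in scale, on which their doses and times differ (10 min for DMDA-PatA and harringtonine, 20 min for puromycin). DMDA-PatA left fewer ORF footprints than harringtonine on 10 of 10 genes (52.8% of all transcripts), with log2 differences from -4.09 for Max to -1.10 for Mcl1, and fewer than puromycin on 10 of 10 (67.4%), from -4.61 for Myc to -1.09 for Mcl1. The difference to puromycin was lost for Mcl1 without puromycin replicate 2, where it was -0.07 (adjusted p = 0.932), without DMDA-PatA replicate 1 or either control library (0.0614 to 0.237) and by limma (0.0587), and that to harringtonine was lost when any library but harringtonine replicate 2 or DMDA-PatA replicate 2 was left out (adjusted p from 0.0631 to 0.274). For Bcl2l1 the difference to harringtonine was lost without DMDA-PatA replicate 1 (0.0795), for Bak1 without harringtonine replicate 1 (0.0595), and for Bax the difference to puromycin without DMDA-PatA replicate 1 or puromycin replicate 1 (0.0886 and 0.0752). Harringtonine left fewer footprints than puromycin on 3 of 10 genes (9.94% of all transcripts, with 1.2% higher), Myc with -1.83 (SE 0.46, adjusted p = 0.00216), Bcl2l1 with -1.75 (SE 0.45, adjusted p = 0.00311) and Bak1 with -1.45 (SE 0.47, adjusted p = 0.0247). Without puromycin replicate 1 all of these 3 calls were lost (adjusted p = 0.117, 0.206 and 0.188), and that of Bak1 was also lost without either control library, harringtonine replicate 2 or puromycin replicate 2 (0.0917 to 0.226). Without harringtonine replicate 1, Mycn and Bcl2l11 were called as well (adjusted p = 0.00882 and 0.0142), as they were with exchanged size factors (3.91e-05 and 0.00448).

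In the genes tested, the 5' UTRs kept a larger fraction of their control footprints than the ORFs, and the genes differed in direction. Tested were 8 of 10 genes, since Mycl and Birc5 had too few reads (at most 14 and 15 in a footprint library). On the 5' UTR of Myc the control libraries had 245 and 288 normalised footprints, puromycin 474 and 315, harringtonine 615 and 469 and DMDA-PatA 78.9 and 108. DMDA-PatA values were thus below and harringtonine values above those of the control. Mycn had 486 and 576 in control cells, 1983 and 1226 with harringtonine and 194 and 317 with DMDA-PatA, in the same order. On Mcl1 the control had 33.0 and 26.3, puromycin 51.7 and 64.7, harringtonine 324 and 247 and DMDA-PatA 80.2 and 162, so that both drugs were above the control. Max had 132 and 124 in control cells, 211 and 173 with harringtonine and 176 and 243 with DMDA-PatA, and Bak1 343 and 313, 435 and 260, and 97.9 and 140 in the same order.

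With DMDA-PatA, 5 of 8 genes were lower (29% of the 6647 transcripts tested), Bcl2l11 (-1.53, SE 0.47), Myc (-1.52, SE 0.45), Bak1 (-1.46, SE 0.45), Bcl2l1 (-1.11, SE 0.46) and Mycn (-1.06, SE 0.44), and Mcl1 was higher (2.03, SE 0.49, adjusted p = 0.000269 by edgeR), as were 14.7% of all transcripts. Max (0.71) and Bax (1.17, from 3 and 11 reads in the control) were not called, but Max was with TMM normalisation (1.30) and with exchanged size factors (0.94, adjusted p = 0.0182), and Bax with TMM (1.79). The calls of Mycn and Bcl2l1 were lost with TMM normalisation (adjusted p = 0.0688 and 0.0883) and without either puromycin library, either control library or DMDA-PatA replicate 1 (adjusted p from 0.0604 to 0.228 and from 0.0642 to 0.189). That of Myc was lost without control replicate 2 (0.0587), that of Bak1 without control replicate 1 (0.0585) and that of Bcl2l11 without DMDA-PatA replicate 1 or control replicate 1 (0.0596 and 0.0728). With harringtonine 3 of 8 were higher (35.1% of all transcripts), Mcl1 (3.27, SE 0.51, adjusted p = 8.76e-09), Bax (2.33, SE 0.63) and Mycn (1.60, SE 0.44), and Myc with 1.02 (SE 0.44, adjusted p = 0.051) was not. The calls of Bax and Mycn were lost without control replicate 1 (0.0783 and 0.0767), and Myc was called without harringtonine replicate 2 (0.0361), without DMDA-PatA replicate 1 or 2 (0.0205 and 0.0201), by DESeq2 (0.0235), by limma (0.0496) and with exchanged size factors (0.0425). With TMM normalisation Bcl2l1 (-0.95), Bcl2l11 (-0.72) and Bak1 (-0.69) were called lower with harringtonine (adjusted p = 0.00513, 0.0276 and 0.0235). On the spike-in scale none of the 8 was lower with harringtonine (5.21% of all transcripts), and none was called in either direction with puromycin, by edgeR, at an unadjusted p under 0.05, by DESeq2 or by limma, where 0.406% of all transcripts were lower and 0.557% higher with puromycin.

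The share of 5' UTR reads among those on the 5' UTR and the ORF does not depend on the scaling between footprint libraries. In the transcriptome libraries the deposited values carry a slightly different factor for each region (1 read is worth 1.61 on the 5' UTR and 1.54 on the ORF in replicate 1, and 0.623 and 0.649 in replicate 2), and their shares are those of the deposited values. For Myc it was 11.7% and 14.3% in control footprints, 16.1% and 14.1% in the transcriptome, 43.5% and 41.1% with puromycin, 77.1% and 80.0% with harringtonine and 79.1% and 82.6% with DMDA-PatA. Mycn went from 8.37% and 9.91% to 80.4% and 81.1% with DMDA-PatA, and Max from 15.6% and 16.7% to 92.4% and 93.4%. With harringtonine the share of Max was 38.7% and 45.7%, below the 70.5% to 80.0% of Myc and Mycn.

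Bak1 had 34.3% and 35.0% of the footprints on the 5' UTR in control cells, more than the 23.2% and 23.8% of its transcriptome reads. With harringtonine or DMDA-PatA it had 89.2% to 92.5%. The share of Bak1 with puromycin, 73.5% and 74.9%, was the highest of the 10 genes. Bcl2l1 had 23.19% and 26.003% in control cells, 37.4% and 46.5% with puromycin, 68.4% and 70.5% with harringtonine and 76.4% and 76.9% with DMDA-PatA. Unlike for Bak1, its control footprint share was below that of its transcriptome reads (29.7% and 32.2%). In Bcl2l11, whose listed ORF is hardly longer than its 5' UTR, the share was 48.8% and 40.2% in control cells and 89.6% and 79.8% with DMDA-PatA. Its transcriptome share, 57.4% and 55.1%, was also above that of the control footprints.

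Of the 8 genes tested on the 5' UTR, Mcl1 and Bax had the lowest shares. That of Mcl1 was 0.985% and 1.03% in control footprints, 9.18% and 8.64% in the transcriptome, 12.1% and 5.39% with puromycin, 25.9% and 29.1% with harringtonine and 23.8% and 26.1% with DMDA-PatA. The median of well expressed coding transcripts was 1.24% and 1.29% in control cells and 25.0% and 27.1% with DMDA-PatA, close to the values of Mcl1. For Bax it was 0.282% and 0.652% in control cells and 16.4% and 7.86% with DMDA-PatA. The transcriptome reads on the Bax 5' UTR differed between the replicates, with 48.2 and 2.49 normalised reads.

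**Figure D5:**
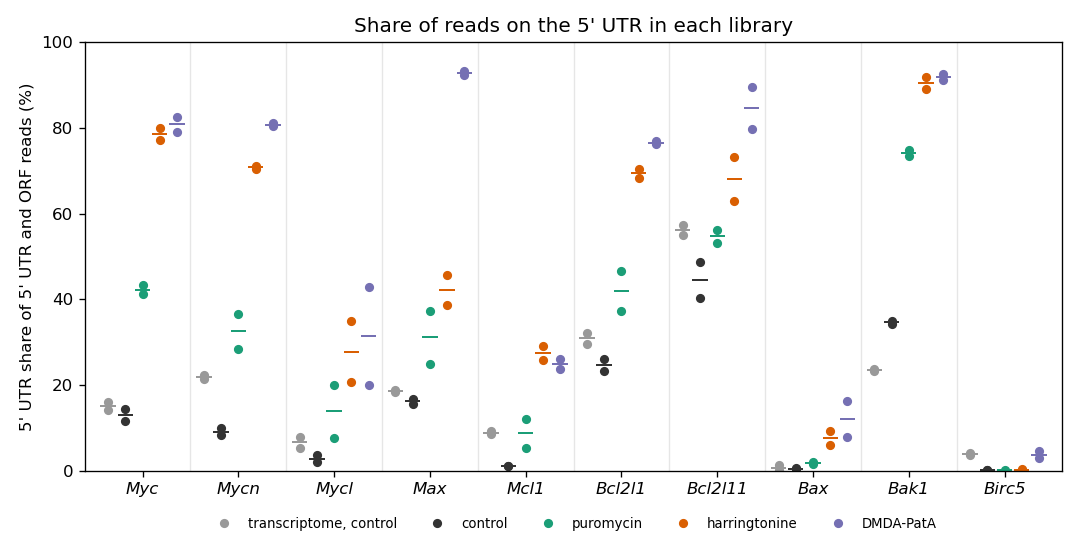
Share of 5' UTR reads among the reads on 5' UTR and ORF, in percent, for the 10 genes, with 1 point per library, 2 per condition, and a bar at their mean. From control to puromycin, harringtonine and DMDA-PatA the share of Myc moves from at most 14.3% to at least 79.1%, and that of Bak1 begins at 34.3%.

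Tested as the difference between the change on the 5' UTR and the change on the ORF within the library, footprints shifted toward the 5' UTR in 8 of 8 genes with DMDA-PatA (93.6% of the 6497 transcripts tested) and in 8 of 8 with harringtonine (95.4%), while 0.139% and 0.123% of all transcripts shifted the other way. The log2 difference with DMDA-PatA was 6.08 for Max (SE 0.47, adjusted p = 3.82e-10 by edgeR), 5.38 for Mycn (SE 0.33), 5.03 for Mcl1 (SE 0.37), 4.82 for Myc (SE 0.32), 4.72 for Bax, 4.40 for Bak1, 3.32 for Bcl2l1 and 2.74 for Bcl2l11, with a median of 4.77 against 4.36 over all transcripts. With harringtonine it ranged from 1.43 for Bcl2l11 and 1.92 for Max to 5.22 for Mcl1, with a median of 4.10 against 4.00. With puromycin 7 of 8 were called (78.3% of all transcripts, with 0.0616% the other way), from 1.15 for Bcl2l1 to 2.98 for Mcl1, and Bcl2l11 with 0.60 (adjusted p = 0.190) was not. The puromycin calls of Max and Bcl2l1 were lost without control replicate 1 (adjusted p = 0.0648 and 0.0766) or puromycin replicate 2 (0.178 and 0.113), and that of Bax without control replicate 1 or either puromycin library (0.102 to 0.141).

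Birc5 carried footprints behind its listed stop codon. The listed transcript encodes the shorter of 2 coding sequences in M21 (363 nt against 420 nt), and 81 nt of the longer one lie in its 3' UTR. On this 3' UTR the control libraries had 281 and 241 normalised footprints, compared with 24.8 and 31.1 with puromycin, 21.3 and 17.5 with harringtonine and 6.31 and 9.74 with DMDA-PatA. The drug values are all below those of the control, and the log2 fold changes were -3.20, -3.75 and -5.02 (edgeR, adjusted p = 1.85e-07, 3.91e-10 and 1.02e-14). Of the 1303 transcripts tested 16.7%, 21.6% and 35.1% were lower. The ORF values of Birc5 therefore leave out part of the longer coding sequence. Of the genes described here, only Birc5, Mycn, Max, Bak1 and Mcl1 had enough reads on the 3' UTR to be tested. Among these Bak1 was the other gene called lower, with DMDA-PatA (-2.71, SE 0.84, adjusted p = 0.00457 by edgeR, from 14 reads in each control library). In M21 94 nt of the coding sequence of the second isoform of Bak1 lie on this 3' UTR.

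The partners of these genes in their pathways were examined by lists. Of 8 genes of the MAX network, whose products compete with MYC for MAX or for its sites, all were lower with DMDA-PatA on the spike-in scale, like 99.3% of all transcripts, and relative to most transcripts 2 were lower and 1 higher (23.6% and 18.8% of all transcripts), with a median of 0.38 against -0.12 over all transcripts. Mnt, a repressor that dimerises with MAX, was among the lower ones (-1.64, SE 0.29), as was Mga (-0.87, SE 0.20), and Mlx had 0.50, which was not called. Of 7 genes that act on the stability of MYC, 2 were lower and 2 higher relative to most transcripts (23.6% and 18.8% of all transcripts), with a median of -0.15. Usp28, a deubiquitinase of MYC, was lower (-0.86, SE 0.20), and the ubiquitin ligase Huwe1 (-0.19) and the kinase Aurka (-0.15) were not called.

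Of 17 further Bcl2 family genes 13 were listed and 11 tested, and relative to most transcripts 2 were lower with DMDA-PatA and 2 higher (23.6% and 18.8% of all transcripts), with a median of -0.45. Bcl2l13, which encodes a protein of the mitochondrial outer membrane, was lower (-0.87, SE 0.23). Bid, whose cleaved product activates BAX and BAK, was also lower (-1.44, SE 0.36), and the BH3-only gene Bmf was higher (0.95, SE 0.30). With puromycin 7 of the 11 were higher on this scale (24.3% of all transcripts), with a median of 1.10 against -0.04. This list was not placed among ORFs of its length. Puromycin inhibited short ORFs less, with a median of 1.93 fold up to 300 nt and 6.32 fold over all well expressed ORFs. Bcl2 itself, named after its values were seen, had 21.2 and 14.5 footprints in control cells, 6.20 and 7.46 with puromycin, 1.01 and 1.40 with harringtonine and no read with DMDA-PatA, and is thus far below Mcl1 and Bcl2l1. Bcl2a1a, Bcl2a1b, Bcl2a1d and Bcl2l10 were not listed.

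Of 9 genes of the IAP family and its antagonists 7 were tested, and 1 was lower and 2 higher with DMDA-PatA relative to most transcripts (23.6% and 18.8% of all transcripts), namely Birc2 (-1.53, SE 0.36), Birc6 (1.29, SE 0.21) and Diablo (1.03, SE 0.25). The 3 partners of Birc5 in the chromosomal passenger complex, Aurkb (-1.56, SE 0.21), Cdca8 (-0.93, SE 0.20) and Incenp (-0.75, SE 0.18), were all lower (23.6% of all transcripts), whereas Birc5 was higher with 0.53. The Birc5 call did not hold under each alternative, as given above. In control cells their footprints exceeded the transcriptome reads (29.9% of all transcripts), like those of Birc5, with log2 differences of 1.74 for Aurkb, 1.84 for Cdca8 and 0.82 for Incenp.

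The coding transcripts most like Myc over the 6 drug libraries were Cacybp, Tex264 and Noct, at Euclidean distances of 0.529, 0.645 and 0.703 on the log2 scale among 8532 transcripts, where the median distance to Myc was 3.74. Their fold inhibition by DMDA-PatA was 92.3, 81.6 and 61.0. Those most like Mcl1 were Zbtb7a (0.619), Scp2 (0.736) and Stambp (0.748), with a median distance of 3.38 and fold inhibitions by DMDA-PatA of 8.17, 8.70 and 8.41.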

How the data were processed

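Footprints were sequenced by the authors on SOLiD from 8 ribosome profiling libraries, and fragmented RNA from 2 transcriptome libraries. Reads were aligned to mm10, reads matching several places were left out, and 1 transcript per gene was kept. The deposited values, a signal per 5' UTR, ORF and 3' UTR, are read numbers divided by size factors, which the authors took from the spike-in for footprints and from the replicates of each region for the transcriptome. All values above 0 were whole multiples of 1 read (100% within 0.02), so reads were recovered and tested with edgeR 4.0.16 (quasi-likelihood, Benjamini-Hochberg adjustment, R 4.3.3), keeping transcripts with at least 10 reads in 2 libraries. The SE given with edgeR values is the absolute log2 fold change divided by the square root of the F statistic. All footprint libraries shared 1 fit with the spike-in factors. TMM replaced these for changes relative to most transcripts. For footprints against transcriptome the library sizes were the sums of ORF reads of the coding transcripts. The 5' UTR was tested against the ORF with the library as a block. Well expressed means at least 100 control footprints and 100 transcriptome reads. Alternatives were DESeq2 1.42.0, limma 3.58.1 on log2(value + 1), added after seeing the data, other scalings, no filter, a replicate block and leaving out each library. Scripts were tested on simulated data. Symbols and sequences are from GENCODE M21 (GRCm38). Whether reads were counted by strand is not given in the sources used here. Read numbers cover counting error only. All 10 genes were named in each comparison. From each list of pathway genes the 3 with the most control footprints were named, and 1 list is not reported here. For Myc and Mcl1 the 3 nearest transcripts over the 6 drug libraries were named. The genes and lists were chosen with earlier results of these data known.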

Additional observations from a re-analysis of the deposited data

Results flagged for a closer look

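On the 3' UTR of Mycn, which enters no comparison of 5' UTR and ORF, harringtonine libraries lay above the control. The control libraries had 5.89 and 5.44 normalised footprints (5 and 6 reads) and the harringtonine libraries 34.5 and 29.4 (34 and 42 reads), a log2 fold change of 2.47 (SE 0.68, adjusted p = 0.00172 by edgeR), where 8.21% of the 1303 transcripts tested were higher. With DMDA-PatA the values were 5.68 and 2.44, and with puromycin 0 and 4.97.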

How the results depend on the processing

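Of the log2 fold changes of the 10 genes under the alternatives, 1766 kept their direction and side of the threshold, 78 fell below it, 27 passed it and 19 reversed, and of the fold inhibitions 73 moved by less than the replicate spread and 7 by more. All reversals came with TMM normalisation in place of the spike-in. On the ORF these were Mycl (0.31), Max (1.55), Mcl1 (0.93), Bcl2l11 (1.47), Bax (1.24) and Birc5 (1.54) for harringtonine, then with DMDA-PatA Mcl1 (1.16), Bax (0.75) and Birc5 (0.53), and with puromycin Myc (0.70), Mycn (0.42), Max (1.30), Mcl1 (0.51), Bcl2l1 (1.19), Bcl2l11 (1.73), Bax (0.47) and Birc5 (1.01). On the 5' UTR with harringtonine they were Bcl2l11 (-0.72) and Bak1 (-0.69), both called lower. With TMM the ORFs called lower numbered 3749 instead of 11608 (harringtonine), 2945 instead of 12414 (DMDA-PatA) and 3112 instead of 11266 (puromycin). On the 5' UTR, TMM gave 1242 lower (346 with the spike-in) and 1411 higher (2333) with harringtonine, 1760 higher (976) with DMDA-PatA, and 156 lower (27) and 127 higher (37) with puromycin. For puromycin limma gave 48 lower and 96 higher. Exchanged size factors gave 70 lower and 80 higher there, 644 lower with harringtonine, and 4694 ORFs lower with harringtonine than with puromycin (1243 as deposited). Leaving out 1 library at a time gave 274 to 3741 for that last count, 3943 to 8334 ORFs lower with DMDA-PatA than with harringtonine (6604 with all), and 1761 to 3008 lower and 1333 to 2615 higher with DMDA-PatA relative to most transcripts (2945 and 2354 with all). On the 5' UTR it gave 165 to 419 lower and 1140 to 2615 higher with harringtonine, 1186 to 2124 lower (1926 with all) and 538 to 979 higher with DMDA-PatA, and 4 to 51 lower and 4 to 83 higher with puromycin. The cause was not tested.

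The replicate numbers are shared between groups, but same-numbered libraries did not deviate together (r from -0.0211 to 0.0511 over 12298 coding transcripts). The numbers were therefore treated as names. Whether same-numbered libraries share a culture is not stated in the labels, and these correlations cannot decide it. With the replicate block the calls of Mcl1 for DMDA-PatA against puromycin (adjusted p = 0.0633) and of Mycn and Bcl2l1 on the 5' UTR with DMDA-PatA (0.0703 and 0.0726) were not made. With the block the puromycin 5' UTR calls were 15 lower and 14 higher, and 12402 ORFs (DMDA-PatA), 11513 (harringtonine) and 11023 (puromycin) were called lower. Low read numbers limit Mycl and Bcl2l11 with DMDA-PatA and the 5' UTRs of Mycl, Bax and Birc5.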
